A study of Mus musculus with 2 samples.

Results

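The 7 genes described here are Sncb, Sncg, Lrrk2, Park7, Pink1, Uchl1 and Atp13a2, a set of mouse genes that are synucleins or whose human counterparts have been linked to inherited parkinsonism. They were chosen by symbol from the 43346 gene rows of both libraries, and all 7 were found and had enough counts to be tested. The study sequenced polyadenylated RNA longer than 200 nt from the cortical plate of C57BL/6J mice aged 8 weeks, with tissue of male and female littermates pooled. Reads were paired and strand-specific, from 2 libraries labelled biological replicates 1 and 2 of 1 group. There is no treatment, genotype or second age, so levels, transcript forms and the difference between these 2 libraries are what the data can show. The labels do not say how many animals went into either pool.

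Synucleins are small proteins of nerve terminals that bind membranes of synaptic vesicles. Pink1 is a mitochondrial kinase that marks damaged mitochondria for removal, Park7 is a protein that senses oxidation, Uchl1 is an abundant neuronal enzyme that acts on ubiquitin, Atp13a2 pumps polyamines out of the lysosome and Lrrk2 is a large kinase that phosphorylates Rab proteins of the membrane traffic. Dopamine neurons of the midbrain, the cells whose loss gives parkinsonism, project to the cortex but have their cell bodies and most of their RNA elsewhere.

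The libraries were deep, with 88327121 expected counts on gene rows in replicate 1 and 88643335 in replicate 2, but markers of several cell types differed between them. Markers are counted here as higher or lower by an exact binomial test with TMM scaling (adjusted p under 0.05, described below). Of all tested genes 14.8% passed it as higher in replicate 2 and 14% as lower. Log2 ratios are of replicate 2 to replicate 1 with that scaling unless TPM is named. All 11 striatal neuron markers were higher in replicate 2, with a median log2 ratio of 1.98, and their summed level went from 151 to 456 TPM (a level per length of transcript, scaled to a fixed total for each library). Of 7 hippocampal markers 6 were lower in replicate 2 and 1 was higher, with a median log2 ratio of -1.72. The summed level of the 7 went from 42.5 to 30.5 TPM. All 8 oligodendrocyte markers were higher there, from 3589 to 4379 TPM in sum, and 6 of 8 excitatory neuron markers were lower, from 3097 to 2656 TPM in sum. These sums carry a shift of the TPM scale, whose median log2 ratio over all tested genes was -0.16. The median log2 ratio of TPM was 0.27 for the oligodendrocyte and -0.25 for the excitatory markers. Among 8 dopamine neuron markers, Foxa2 and En1 had 0 counts in both libraries, and the list summed to 45.9 and 43.7 TPM. Of that sum 34.7 and 28.4 TPM came from Aldh1a1, which other brain cells also express. Nr4a2 of that list, which some cortical neurons also express, was 2.04-fold higher in replicate 2 (5.99 and 10.6 TPM). The part of these marker differences in the values of the 7 genes was not tested.

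The 7 genes spanned more than 2 orders of magnitude, with Uchl1 and Sncb at the top and Sncg at the bottom. Uchl1 was at 620 TPM in replicate 1 and 572 in replicate 2, a mean of 596 ± 34.2 (SD, n = 2), which placed it 79 and 73 among the 17660 nuclear protein-coding genes with a count. Sncb followed at 423 and 363 TPM, at places 152 and 167. Pink1 was at 231 and 204 TPM, at places 364 and 380. These 3 genes were among the most abundant messages of the tissue, with 29158 to 35025 counts each in a library.

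Park7 was at 164 and 140 TPM, and Atp13a2 at 98.5 and 92.5 TPM, at places 1056 and 988. Lrrk2 was at 11.1 and 10.6 TPM, at places 7666 and 7425. Sncg was at 4.99 and 2.99 TPM, from 220 and 143 counts, at places 10164 and 11172. No neighbouring genes in this order overlapped between the libraries: the lower value of each gene lay above the higher value of the next. In bulk tissue fewer cells of a type and less RNA per cell cannot be told apart, so a low level such as that of Sncg can be a weak level in many cells or a strong one in few.

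**Figure D1:**
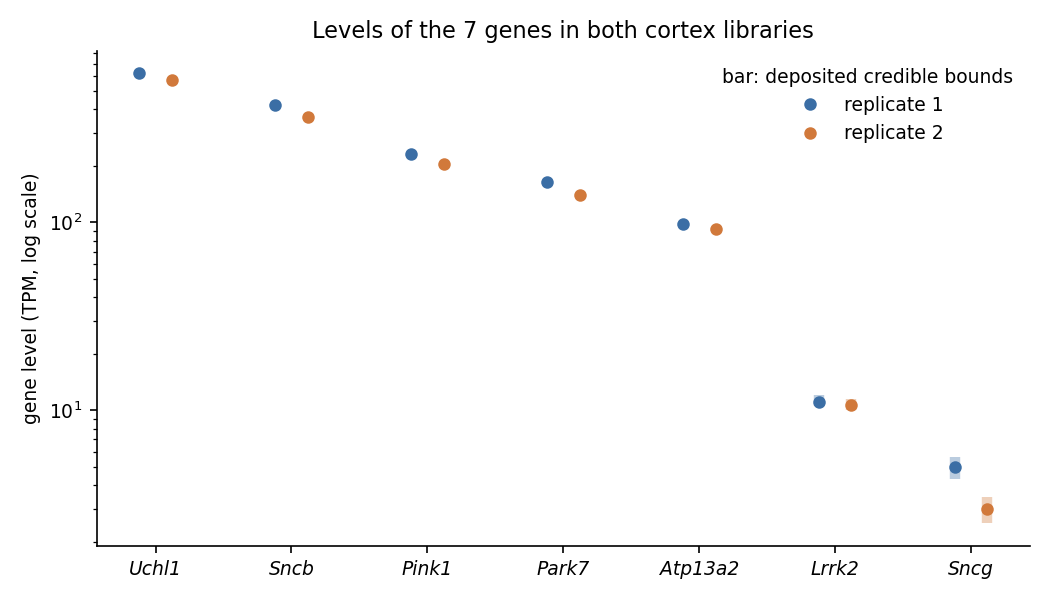
Level of each gene in TPM on a log axis, with 1 point for each library and a bar for the credible bounds deposited with it, which are narrower than the points for the abundant genes. Uchl1 is highest at 620 and 572 TPM and Sncg lowest at 4.99 and 2.99 TPM, and the gap between the 2 libraries is widest for Sncg.

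The order of the upper genes depended on what was counted as the gene's RNA. On the older mm9 assembly with Ensembl 65 gene models, Sncb (42.4 and 37.3 RPKM in the 2 deposited columns) and Uchl1 (40.7 and 38.5 RPKM) overlapped. RPKM is a level per length of gene and per depth of library, and the files do not tie these columns to replicates. When only protein-coding transcripts were summed on mm10, Sncb was at 391 and 342 TPM and lay above Uchl1 at 306 and 254 TPM. On the same sum Lrrk2, at 3.80 and 3.87 TPM, overlapped Sncg at 4.99 and 2.99 TPM. With counts scaled only by depth (CPM), with no division by length, Pink1 (374 and 358 CPM) lay above Sncb (349 and 329 CPM), and Atp13a2 (217 and 212 CPM) above Park7 (88.1 and 81.3 CPM).

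The genes closest in level, by the distance of log2(TPM + 1) over the 2 libraries, were Rab3a for Uchl1, Ndufb9 for Sncb, Prkar1a for Pink1, Cox7a2l for Park7, Csnk1e for Atp13a2, Fam78b for Lrrk2 and Cnbd2 for Sncg. With 2 libraries this is likeness of level only.

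The synuclein pair was far apart. Sncb exceeded Sncg by a log2 ratio of 6.41 in replicate 1 and 6.92 in replicate 2, a mean of 6.66 ± 0.36 (SD, n = 2). Sncb lies on chromosome 13 and Sncg on chromosome 14. Their coding sequences are close relatives, with 399 and 369 coding bases and 246 of 360 aligned bases the same (68.3%). At the start of the coding sequence, which encodes part of the membrane-binding repeats, 96 of the first 120 bases (80%) matched. The starts are shown because the 2 RNAs are so alike there and so different in level. They are from GENCODE M21 transcripts on GRCm38, minus strand, at chr13:54765564-54765683 for Sncb and chr14:34374461-34374580 for Sncg, with the bases that both share in capitals.
Sncb: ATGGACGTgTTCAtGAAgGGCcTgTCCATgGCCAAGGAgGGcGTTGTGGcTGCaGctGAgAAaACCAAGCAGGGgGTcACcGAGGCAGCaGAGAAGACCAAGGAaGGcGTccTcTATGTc
Sncg: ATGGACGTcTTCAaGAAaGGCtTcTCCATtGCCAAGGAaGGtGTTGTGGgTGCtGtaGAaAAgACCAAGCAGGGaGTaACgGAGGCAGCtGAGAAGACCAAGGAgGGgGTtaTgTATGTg

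Each of the other 3 genes with relatives was also the most abundant of its family in both libraries. Uchl1 exceeded the related ubiquitin hydrolases Uchl3 (25.7 and 23.0 TPM) and Uchl5 (17.5 and 16.6 TPM) by mean log2 ratios of 4.61 ± 0.03 and 5.13 ± 0.03 (SD, n = 2). Lrrk2 exceeded Lrrk1, at 1.78 and 1.71 TPM, by 2.64 on the log2 scale in both libraries. The size of this ratio depended on the gene model. With mm9 RPKM it was 2.10, and the coding transcript of Lrrk2 alone was at 3.80 and 3.87 TPM. Atp13a2 exceeded the other P5-type ATPases, from Atp13a1 (28.3 and 24.3 TPM, log2 ratio 1.86 ± 0.09) through Atp13a3 and Atp13a4 to Atp13a5 (5.43 and 4.93 TPM, 4.21 ± 0.03). In all 8 pairs the first gene was higher in each library, and the mean log2 ratio exceeded its SD.

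Between the 2 libraries most of the genes differed by little. With TMM scaling, an exact binomial test on counts and Benjamini-Hochberg adjustment over 19829 genes, 5 of the 7 passed an adjusted p of 0.05, where 28.7% of all tested genes did. This test weighs counting error alone, so for genes with the counts of Uchl1 or Sncb it passes differences of a few percent. Of the 5, Sncb, Pink1, Park7 and Sncg were lower in replicate 2 (14% of all genes) and Lrrk2 was higher (14.8% of all genes). Only Sncg also differed by at least 1.2-fold, as did 9.32% of all genes. With edgeR's exact test, which adds the common variation of all genes between these libraries, none of the 7 and 1.31% of all genes passed. At an unadjusted p under 0.05 only Sncg did. That variation was estimated from these same 2 libraries taken as 1 group, so the differences between them raise it. Not passing this test therefore does not show that a gene was unchanged. No p-value here compares conditions, since both libraries are of the same group.

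Sncg was 1.51-fold higher in replicate 1 (95% interval 1.22 to 1.88, adjusted p = 0.000841 by the exact binomial test), with 220 against 143 counts. With edgeR's exact test its adjusted p was 0.396. In the cortex Sncg also marks a class of inhibitory neurons, and of 8 markers of that class 1 was higher and 2 were lower in replicate 2 (37.5% passed, against 28.7% of all genes), with their sum at 1064 and 879 TPM. Most of that sum was Cck, at 895 and 725 TPM. The median log2 ratio of the 8 markers, replicate 2 to replicate 1, was 0.017 with TMM scaling. On the TPM scale of the sum it was -0.17, beside -0.16 for all tested genes.

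For Sncb replicate 1 was higher by 1.04-fold (1.02 to 1.05, adjusted p = 4.8e-05, exact binomial test) and for Park7 by 1.06-fold (1.02 to 1.09, adjusted p = 0.0031, exact binomial test). Pink1 was just inside the threshold, 1.02-fold higher in replicate 1 (adjusted p = 0.0486, and 0.0586 with no filter on low counts). Uchl1 was just outside it, 1.02-fold higher in replicate 2 (adjusted p = 0.0546, and 0.049 with a filter at 50 counts), both by the exact binomial test. Atp13a2 had a ratio of 0.998 with an interval of 0.978 to 1.02. Lrrk2 was 1.10-fold higher in replicate 2 (1.05 to 1.15, adjusted p = 0.00103, exact binomial test), but spike-in totals gave it a log2 ratio of -0.019 (adjusted p = 0.696) and TPM one of -0.061. Those scalings moved the median of all genes to -0.15 and -0.16, so Lrrk2 stayed above that median. Sncb, Pink1, Park7 and Sncg were lower in replicate 2 under every scaling tried. Atp13a2 was not, since its TPM over nuclear protein-coding genes alone was higher there (184 and 191). Its log2 ratio of TPM, -0.091, also lay above the median of all genes.

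**Figure D2:**
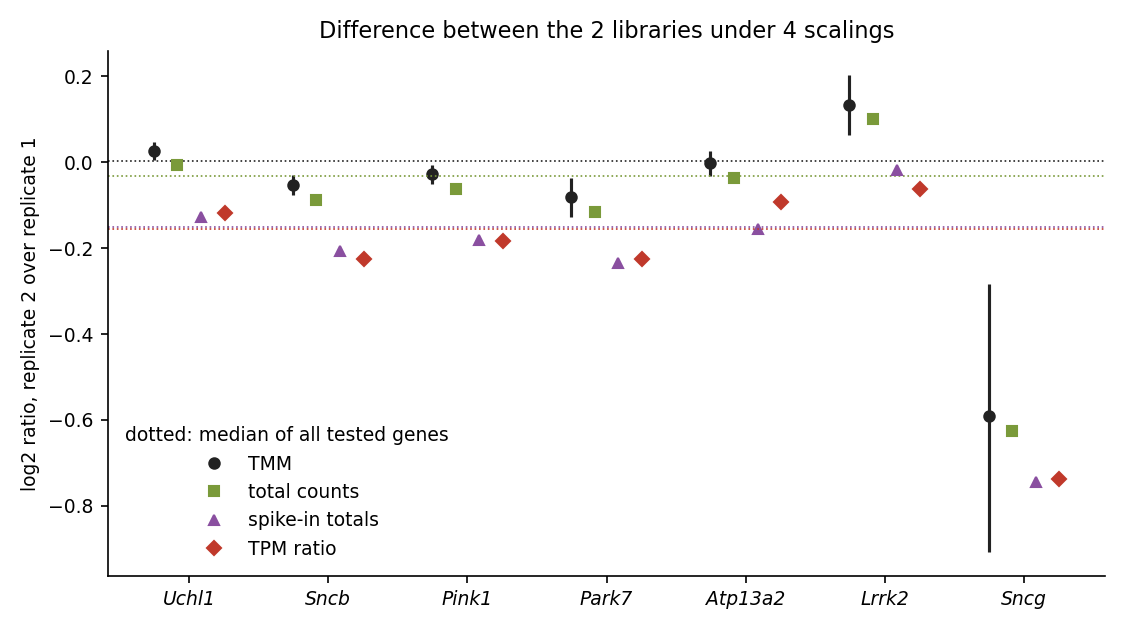
Log2 ratio of replicate 2 to replicate 1 for each gene under 4 scalings, with 95% intervals of counting error on the TMM values and dotted lines at the median of all tested genes for each scaling. Sncg lies at -0.59 with TMM and the other 6 genes within about 0.13 of 0, while Lrrk2 and Uchl1 fall below 0 with spike-in totals and with TPM.

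The wider pathways moved as little. Across 6 lists with 109 genes, 30 were higher and 18 lower in replicate 2 (44.0% passed, against 28.7% of all genes), none of them by 1.2-fold. The median absolute log2 ratio was 0.05, against 0.11 over all tested genes. All tested genes include genes with as few as 10 counts over both libraries. The lists were not matched to them for counts, on which both the median and the share passed depend. With spike-in totals 2 were higher and 87 lower, where 53.2% of all genes passed, most of them lower. With total counts 13 were higher and 38 lower, where 31.2% of all genes passed, most of them lower. These uneven counts follow the shift of all genes under each scaling. With edgeR's exact test none passed, adjusted or unadjusted.

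Of 25 genes of mitochondrial quality control, the pathway of Pink1, 4 were higher and 3 lower (28% passed, close to the 28.7% of all genes). Chchd2, a protein of the mitochondrial intermembrane space, was the most abundant at 394 and 395 TPM, and the autophagy receptor Sqstm1 was next at 225 and 205 TPM. The receptor Optn was lowest at 4.24 and 3.72 TPM. Among those that passed the test, the protease Htra2 had the largest change (log2 ratio -0.16).

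Of 20 partners and Rab substrates of Lrrk2, 4 were higher and 6 lower (50% passed). The synaptic vesicle protein Rab3a, at 623 and 573 TPM, stood far above Lrrk2 itself, and the substrate Rab35 (57.1 and 45.1 TPM) had the largest called ratio at -0.12. Of 21 genes of P5-type ATPases, polyamines and the lysosome, around Atp13a2, 8 were higher and 2 lower (47.6% passed), led by the polyamine regulator Oaz1 (384 and 393 TPM) and the protease Ctsd (232 and 227 TPM). Atp13a4 had the largest called ratio, -0.21.

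Of 14 ubiquitin genes and deubiquitinases, 3 were higher and 3 lower (42.9% passed), led by the ubiquitin gene Ubb (1763 and 1617 TPM). Uchl5 was the lowest of that list. Of 19 genes of redox and glyoxal defence, the setting of Park7, 9 were higher and 4 lower (68.4% passed), led by Gpx4 (506 and 479 TPM) and Sod1 (412 and 359 TPM), with the largest called ratio in Gpx1 (0.22). Of 10 presynaptic partners of synucleins, 2 were higher and none lower (20% passed). Snap25, a protein of vesicle fusion, was at 1594 and 1465 TPM and the chaperone Hspa8 at 1093 and 1106 TPM, while Sncaip was at 1.21 and 1.26 TPM.

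The transcripts behind these levels differed in kind. For Sncb, Park7 and Pink1 a single coding transcript held most of the gene's TPM. Sncb-201 held 89.9% and 91.5% in replicates 1 and 2, Park7-201 97.5% and 96.4% of a gene with 10 annotated transcripts, and Pink1-201 92.8% and 92.5%. Pink1-202, with 504 coding bases in place of 1740, took 7.01% and 7.26%. Sncg has 1 transcript in this annotation.

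Uchl1, Atp13a2 and Lrrk2 had no transcript above 60%. In Uchl1 the coding transcript Uchl1-201 held 49.4% and 44.3%, and Uchl1-202, annotated as a retained intron, held 43.2% and 49.4%. By expected counts Uchl1-201 led in both libraries, with 57.1% and 51.6% against 40.3% and 46.3% for Uchl1-202. In Atp13a2 the coding transcripts Atp13a2-203 (32.8% and 30.7%) and Atp13a2-201 (22.0% and 21.6%) shared the gene with the retained-intron transcripts Atp13a2-205 (24.8% and 28.2%) and Atp13a2-206 (13.7% and 11.8%). By expected counts Atp13a2-205, of 877 nt, held 5.82% and 6.91%.

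In Lrrk2 the coding transcript of 8275 nt held 34.2% and 36.4% of TPM but 65.1% and 67.5% of expected counts. The non-coding Lrrk2-202, of 2203 nt, held 41.5% and 44.5% of TPM and 19.6% and 20.4% of counts. A share of TPM divides by length, so a short transcript weighs more in it than in counts.

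**Figure D3:**
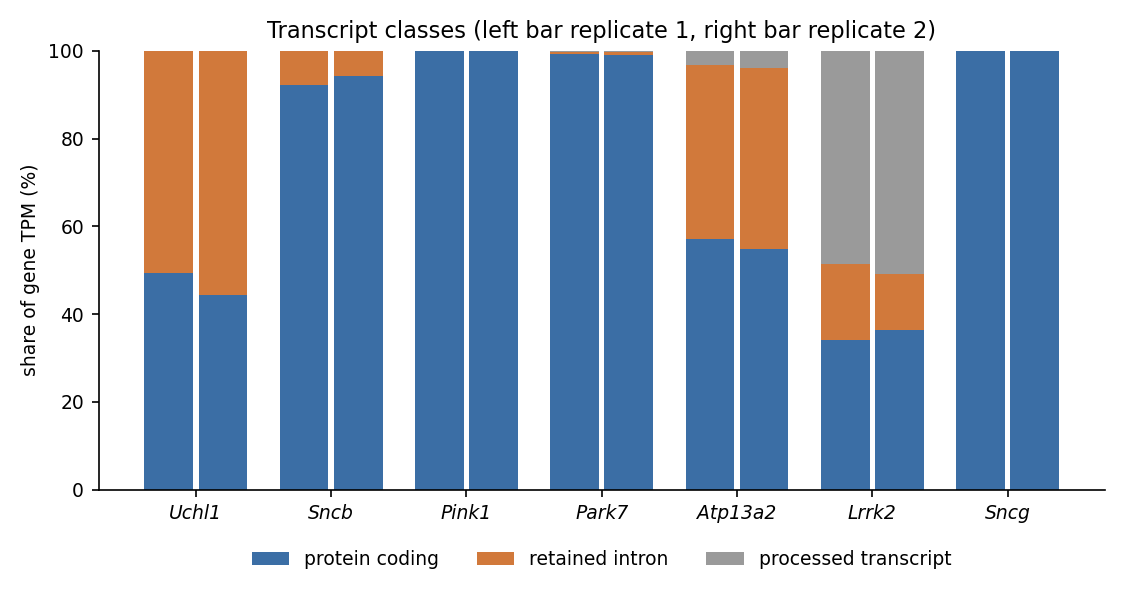
Share of each gene's TPM in protein-coding, retained-intron and processed (non-coding) transcripts, stacked to 100%, with replicate 1 in the left bar and replicate 2 in the right bar of each gene. Sncb, Pink1, Park7 and Sncg are at least 92.3% coding, Atp13a2 57.1% and 54.7%, Uchl1 49.4% and 44.3%, and Lrrk2 34.2% and 36.4%.

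Reads that cross splice junctions, counted by the authors on mm9, gave a view of the same transcripts that does not rest on dividing shared reads. These counts come in a pair of columns that the files do not tie to replicates. All junctions of the first-numbered coding transcript of each gene had reads, counting placements of the same intron length shifted by up to 12 bases. Lrrk2 showed all 50 junctions, with 34 to 342 reads over both columns. Its first 16 junctions averaged 31.8 and 36.6 reads in the 2 columns and its last 16 averaged 90.4 and 99.5, a ratio of 2.85 and 2.72. The 23 junctions found in the coding transcript alone averaged 34.7 and 37.7 reads.

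The 1 junction that belongs to Lrrk2-202 alone had 0 reads in both columns. Other junctions into the same acceptor had 116 and 110 reads. A count of 0 therefore allows Lrrk2-202 a share of up to 2.59% and 2.73% there. This limit covers counting error only and holds if its reads are placed at that junction. On the deposited TPM the same transcript was the most abundant of the gene. The remainder of Lrrk2-202 overlaps the 3' part of the coding transcript, where junction reads were higher. The junction that belongs to Atp13a2-205 alone also had 0 reads, beside 650 and 674 at the coding junction whose acceptor lies 1 base away. That would allow it up to 0.462% and 0.445% there, but only if its reads are not placed at the coding junction. Which of these neighbouring positions such reads would be given cannot be told here, so the 0 sets no firm limit on Atp13a2-205.

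In Uchl1 the annotated junctions had 891 and 874 reads at the first, 338 and 331 at the second, 4448 and 4272 at the third and 10647 and 11765 at the last. Counting a further 2385 and 2369 reads in unannotated placements that leave the same exon, 3276 and 3243 reads left exon 1, and the last junction had 3.25 and 3.63 times as many. In Park7 the last junction had 1.63 and 1.73 times the reads of the first. In Sncb the last junction had fewer reads than the first (2467 and 2202 against 3180 and 3698), and in Sncg the 4 junctions had 28 to 68 reads in a column with no rise. Pink1 had at least 1217 reads in each column at every junction.

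**Figure D4:**
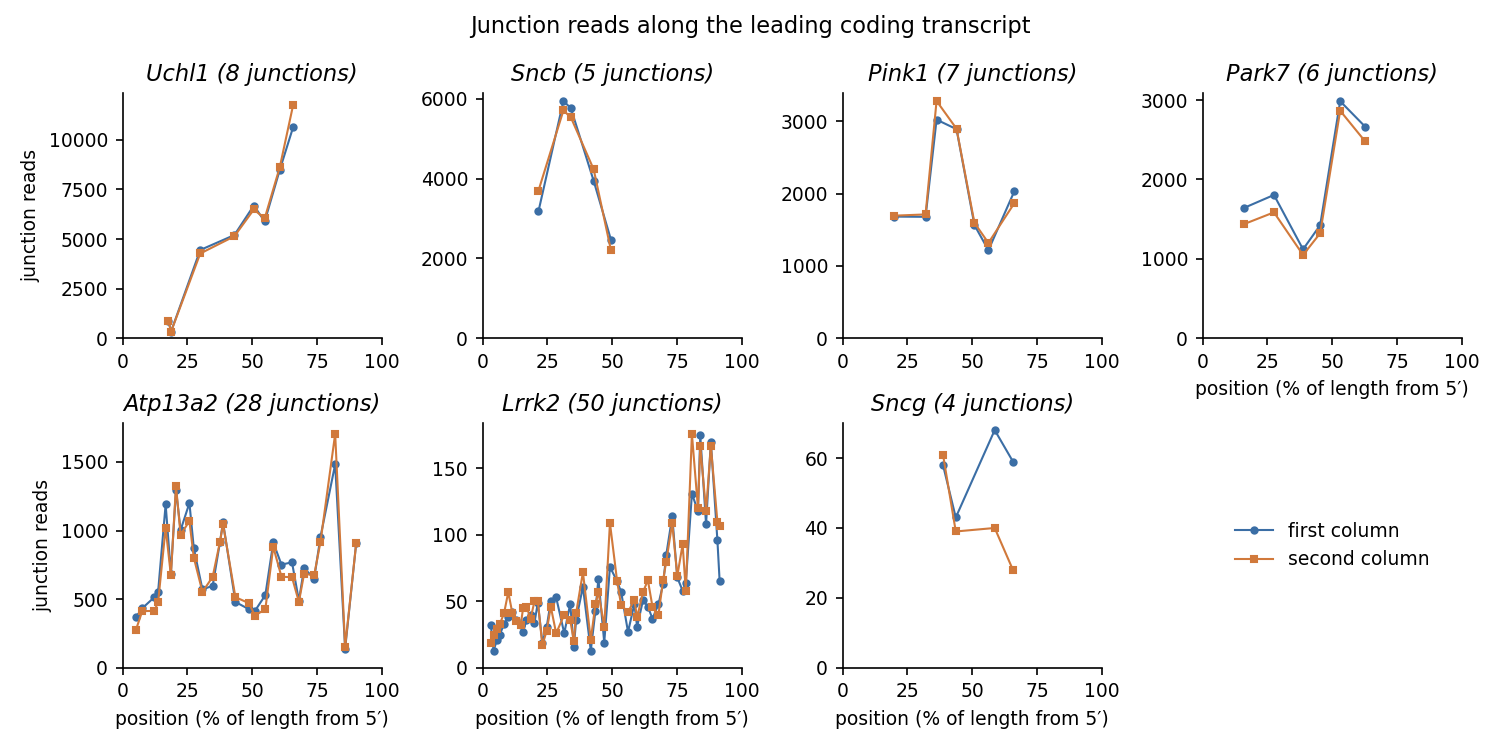
Junction reads (vertical axis, each panel on its own scale from 0) against the position of the junction in the coding transcript (percent of its length from the 5′ end) for the 7 genes, with 1 line for each deposited column. For Uchl1 the annotated junctions alone are drawn, from 891 and 874 reads through 338 and 331 at the second to 10647 and 11765 at the last, without the 2385 and 2369 reads from exon 1 in unannotated placements. Lrrk2 rises towards its 3′ end. At its junction 27 Atp13a2 is drawn with the long form of exon 28 alone, at 139 and 152 reads. The short form there had 222 and 255 reads that are not drawn, and both forms together had 361 and 407.

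Exon 2 of Uchl1 and the acceptor of exon 28 of Atp13a2 are given in detail, chosen after their values were seen. Of the internal exons of the 7 coding transcripts, 100 had at least 20 informative reads in each column, and 99 of those were included in at least 90% of reads in both columns, the lowest value being 91.8% in Lrrk2. The exception was exon 2 of Uchl1, a coding exon of 12 bases.

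This exon lies at chr5:66676436-66676447 on GRCm38. Reads from exon 1 into it numbered 891 and 874, and reads from it into exon 3 numbered 338 and 331. A further 2385 and 2369 reads joined the end of exon 1, or a place within 14 bases of it, to a place just before exon 3. These lay in 10 unannotated placements, all with an intron of 609 bases, which leave 12 bases between exon 1 and exon 3. The most used placement, with 2306 and 2319 reads, ends 12 bases before exon 3. Reads that joined exon 1 to exon 3 with no base between them numbered 0 of 3289 and 0 of 3253. For counting error only, that allows a share of up to 0.0912% and 0.0922%, if reads of such a join are placed at it.

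Exon 2 therefore has an inclusion of 20.5% and 20.3% if those placements are read as skipping, and of 100% if the 12 bases in them are read as exon 2. The reads were not used here, so which bases they hold cannot be told from the table. The sequences are shown because this choice turns on them. The first is the spliced RNA of Uchl1-201 from the coding end of exon 1 to the start of exon 3, with exon 2 in capitals. The second is the genome from the intron into exon 3, at chr5:66676932-66676967, with capitals where the 12 intron bases match exon 2 at the same place. Both are on the plus strand of GRCm38, from GENCODE M21 transcripts.
Uchl1 spliced: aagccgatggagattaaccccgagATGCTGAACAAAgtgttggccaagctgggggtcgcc
Uchl1 intron and exon 3: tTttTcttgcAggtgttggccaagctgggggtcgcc

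The 12 intron bases match exon 2 at 3 of 12 places (positions 2, 5 and 11 from the 5′ end of the exon) and differ at 9. The authors' table marks these placements as neither annotated nor of the usual splice-site type, if its flags A and C are read that way, since both are 0. The retained-intron transcript Uchl1-202, at 43.2% and 49.4% of the gene's TPM, starts in this intron and so has none of the junctions of exons 1 and 2.

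In the penultimate exon of Atp13a2 the junction from exon 27 to exon 28 uses 2 annotated acceptors that lie 74 bases apart. The long exon of 170 bases, in Atp13a2-201, had 139 and 152 reads, and the short one of 96 bases, in Atp13a2-203, had 222 and 255. The long form took 38.5% (95% Wilson interval 33.6 to 43.6) and 37.3% (32.8 to 42.1) of these reads, so both columns favoured the short form by about the same amount.

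Together both forms had 361 and 407 reads, against 1483 and 1705 at the junction before and 913 and 913 at the junction after. That is 24.3% and 23.9% of the reads before it, and 39.5% and 44.6% of those after it. The junction before has the most reads of the gene's 28 junctions. Some other junctions of the gene had counts near 361 and 407, such as 427 and 471 at junction 16 and 414 and 381 at junction 17. Retained-intron transcripts of the gene, Atp13a2-205 and Atp13a2-206 among them, held 39.7% and 41.3% of its TPM but 26.2% and 25.5% of its expected counts. The junction of Atp13a2-205 alone had 0 reads, though its reads could be placed at the coding junction beside it. The share of unspliced reads at this intron was not measured here.

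The exon is shown because the acceptor choice changes the protein's end: Atp13a2-201 has 3507 coding bases, 135 of them in the last exon, and Atp13a2-203 has 3345, 47 of them in the last exon. It lies at chr4:141006679-141006848 on the plus strand of GRCm38, and the bases that only the long form holds are in capitals.
Atp13a2 exon 28: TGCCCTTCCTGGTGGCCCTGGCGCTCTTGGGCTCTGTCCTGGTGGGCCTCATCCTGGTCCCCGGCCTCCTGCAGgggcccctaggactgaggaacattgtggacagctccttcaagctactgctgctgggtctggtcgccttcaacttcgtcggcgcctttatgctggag

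**Figure D5:**
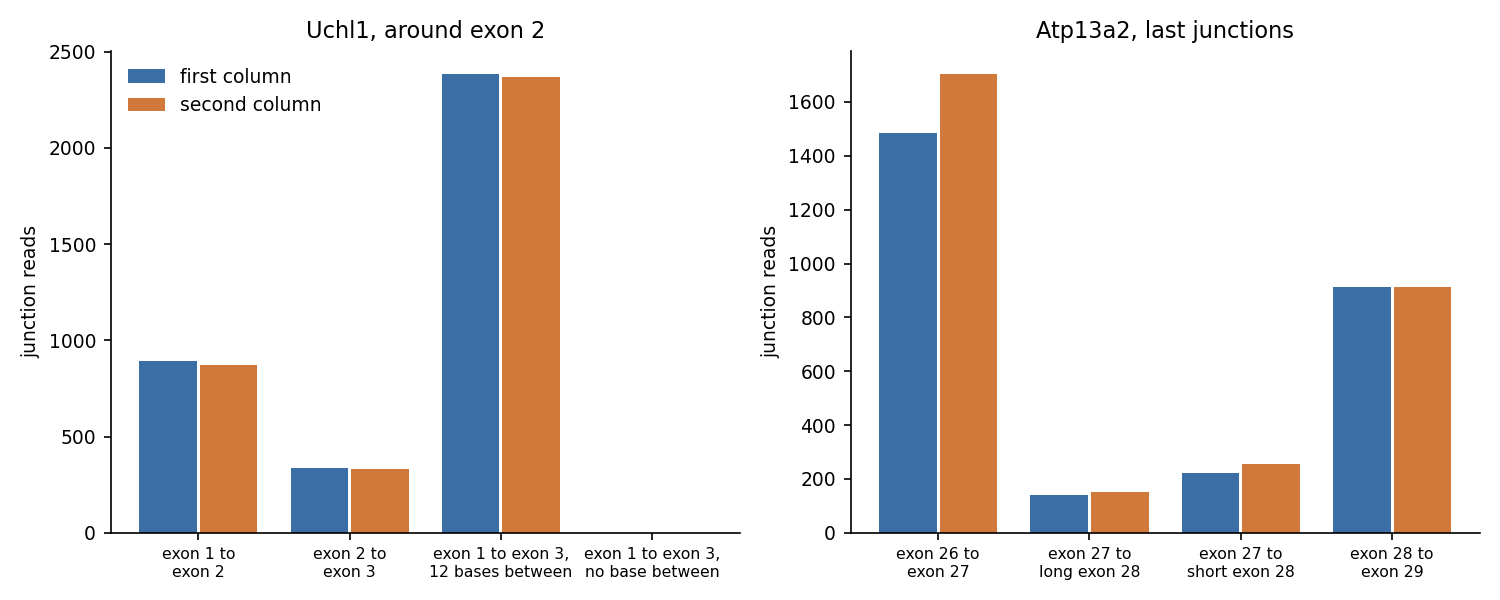
Junction reads around exon 2 of Uchl1 (left) and at the last junctions of Atp13a2 (right), with 1 bar for each deposited column. In Uchl1 the placements that leave 12 bases between exons 1 and 3 hold 2385 and 2369 reads and joins with no base between hold 0, and in Atp13a2 both forms of exon 28 lie far below the junctions on either side.

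Unannotated junctions with at least 20 reads over both columns numbered 17 in the 7 genes, 5 of them in Atp13a2, 4 in Uchl1 and none in Sncg. The best supported outside exon 2 of Uchl1 were whole junctions placed elsewhere. In Sncb the junction between exons 4 and 5 had no read at the annotated position and 3941 and 4230 reads at a placement of the same intron length shifted by 4 bases, and the penultimate junction of Lrrk2 likewise had 96 and 110 reads shifted by 4 bases. In Sncb 2 further junctions divided the first intron, with 87 and 100 reads at one and 39 and 45 at the other, beside 3180 and 3698 for the annotated intron. They leave a stretch of 114 bases between them, at chr13:54867186-54867299 on mm9. In Atp13a2 an acceptor shifted by 3 bases at junction 5 had 83 and 75 reads beside 1191 and 1020 at the annotated one, or 6.51% and 6.85% of both. An acceptor shifted by 3 bases at junction 3 of Pink1 took less, 1.66% and 1.32%, with 51 and 44 reads beside 3021 and 3279. An intron of 51 bases in Atp13a2 with neither end annotated had 31 and 38 reads, and an acceptor of Uchl1 shifted by 4 bases at junction 6 had 20 and 46. In Park7 a junction that skips exons 4 and 5 had 22 and 8 reads. The others had 21 to 42 reads over both columns, apart from a placement at exon 2 of Uchl1 with 70.

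Apart from the neighbouring gene Ddost, signal on the opposite strand was low. The authors' contigs, which are stretches of continuous signal on 1 strand of mm9, included 19 on the strand opposite to these genes. Lrrk2 had 11, with 1575 bases in all and a deposited level of at most 0.563. The strongest, at a level of 9.97, is 4254 bases long, overlaps Ddost and covers 850 bases at the 3′ end of Pink1, whose own contigs reach 21.8. Uchl1 had no antisense contig, although the antisense gene Uchl1os is annotated on its opposite strand. The libraries are strand-specific, so signal from such pairs falls on different strands.

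Pink1, Atp13a2 and Park7 lie on chromosome 4, at chr4:138313409-138326307, chr4:140986873-141007330 and chr4:150897133-150914437 on GRCm38. Uchl1 lies at chr5:66676091-66687234, Sncb at chr13:54758860-54766595, Sncg at chr14:34370274-34374789 and Lrrk2 at chr15:91673175-91816120. Lrrk2 is the longest of the 7 by far, at 142946 bases, and its coding transcript has the lowest GC content (45.5%), while the other coding transcripts lie between 56.6% and 62.4%.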

How the data were processed

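Per the file headers, the authors deposited expected counts, TPM, FPKM and percent of gene TPM for each library. Their README files name mm10 with GENCODE M4 (mm9 and Ensembl 65 for the older tables). The deposited credible bounds of TPM were kept as a score with no stated level, and FPKM was not used. The authors' mm9 tables give gene RPKM, junction read counts and a contig signal in columns not tied to replicates. The mm9 exon RPKM repeat their transcripts' values, so no exon level was taken from them. The aligner and quantifier are not given in the sources used here. The program's splitting of reads among overlapping transcripts sets the shares given for them.

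Symbols and positions came from GENCODE M21 on GRCm38 by unversioned identifier. Expected counts were rounded and scaled with TMM over all gene rows (edgeR 4.0.16, R 4.3.3). Genes whose counts in the 2 libraries summed to at least 10 were tested. For them the libraries were compared by an exact two-sided binomial test with Benjamini-Hochberg adjustment at 0.05. Log2 ratios added 0.5 counts. Ratio intervals are exact (95%). Intervals and the limits for 0 reads (3 reads) cover counting error only. The test was tested on simulated counts with known changes. With 1 library on each side edgeR's quasi-likelihood test has no residual degrees of freedom. Inclusion was the mean junction reads at the sides of an exon over that mean and the skipping reads, in percent. Coding sequences were aligned globally with Biopython 1.88. Other steps used Python 3.11.15, scipy 1.17.1 and DESeq2 1.42.0 (for an alternative scaling).

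Named were the 7 genes and their relatives, the 2 most and the least abundant genes of each pathway list with its largest called change, and leading markers. The members, 6 pathway lists and 12 marker lists were chosen with earlier results of these data known. Splice variants were taken from the unannotated junctions with at least 20 reads, and those described, like the other markers and list members given beside results, were picked after their values were seen. Protein sequences were not used here.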

Additional observations from a re-analysis of the deposited data

How the results depend on the processing

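The order of the 7 levels was the same with posterior mean TPM, with TPM over nuclear protein-coding genes and in either library alone (7 of 7 places for each). It kept 5 places with mm9 RPKM and 3 with CPM not divided by length. The count of 5 genes called between libraries was 4 to 6 under the other scalings and filters and with 1 count added. Of all genes, 22.8% (no filter on low counts) to 53.2% (spike-in totals) passed under these. The count was 0 with edgeR's exact test, where the count past 1.2-fold also went from 1 to 0. The log2 ratio of Uchl1 changed sign with total counts (-0.0073), spike-in totals (-0.13) and TPM (-0.12), and that of Lrrk2 with spike-in totals (-0.019) and TPM (-0.061); the median of all genes moved down with each of these. Pathway genes called numbered 48, and 89 with spike-in totals, 5 of them by 1.2-fold, and 0 with edgeR's exact test. All 8 pairs kept their direction under every alternative and in each library alone (8 to 8). The count of genes with no transcript above 60% was 3 in each library alone (3 to 3) and 2 by share of counts, where Lrrk2 left it. The 1 exon under 90% inclusion was the same at 10 and at 50 reads, and 0 remained when the placements that leave 12 bases were counted as exon 2 of Uchl1, an alternative chosen after seeing the data. Antisense contigs numbered 19, and 18 when at least 50% of the contig had to lie in the gene. No paired analysis was possible because the series has 1 group. Leaving out a replicate leaves no difference between libraries to fit. With 220 and 143 counts, Sncg is the gene whose depth limits its ratio most.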
